A study of Saccharomyces cerevisiae with 6 samples.

Results

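Ubiquitin is a small protein that is joined to other proteins to mark them, most often for destruction by the proteasome. It is passed from an activating enzyme (E1) to a conjugating enzyme (E2), and from there to the target with the help of a ligase (E3), and the choice of E2 and E3 sets which proteins are marked. UBI4 codes for polyubiquitin, a head-to-tail string of ubiquitin units that is cut into single ubiquitin and is known in yeast as a source of ubiquitin under stress. The genes described here were UBI4 and 9 ubiquitin E2 genes of Saccharomyces cerevisiae, UBC1, UBC4, UBC5, UBC6, UBC7, UBC11, UBC13, CDC34 and RAD6. They were taken by gene symbol from the array platform's annotation, which gave 11 features for these 10 genes among 6912 features and 5365 named genes in all. UBI4 had 2 features, whose values were identical in every scan, so they were no check of each other, and each of the other 9 genes had 1 feature.

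Cells of S288C, the strain behind the yeast reference genome, were exposed in exponential phase to tetrachloroethylene, a chlorinated solvent, at 3.3 mM for 2 h. They grew in YPD, a rich medium with glucose, at 25 °C. The arrays had 2 colours, with cDNA of exposed cells labelled with Cy5 and cDNA of cells taken before the addition labelled with Cy3, with no exchange of dyes and no untreated culture at 2 h, so elapsed time and dye cannot be told apart from the solvent in any ratio. There were 3 hybridisations from independent biological samples, each scanned at high and low laser power, and the 2 scans were averaged, so n is 3 throughout. Values are log2 ratios of exposed over unexposed cells. The base and the direction of the ratio are not stated in the labels and were read from the dye labels and the range of the values, and every sign below rests on that reading.

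Ratios are relative to the other transcripts on the same array, so less RNA per cell and fewer cells of a kind cannot be told apart. Hybridisation 1 stood apart: over 5349 genes its ratios correlated with those of hybridisations 2 and 3 at Pearson's r = 0.56 each, against 0.84 between hybridisations 2 and 3, and their SD over genes was 0.90 against 0.65 and 0.67. The median gap between the scans of a gene was 0.17, 0.35 and 0.20 in hybridisations 1, 2 and 3. Of 9 measured markers of mating type and meiosis, STE3 and MF(ALPHA)2, a pheromone receptor and a pheromone of alpha cells, fell, and 7 did not pass. The share called was 22.2%, against 21.0% of all genes. STE3 had a value in the low power scan alone in hybridisations 2 and 3, and MF(ALPHA)2 did in hybridisation 2. The means of all 9 ranged from -1.57 to 1.70. The highest were those of SPO11, a meiosis gene, and MFA2, a pheromone gene of a cells, which read 3.86 and 4.29 in hybridisation 1 against 0.57 and -0.22 in hybridisation 2 and 0.66 and 0.59 in hybridisation 3. MFA1 and STE2, also genes of a cells, read 1.09 and 0.73 in hybridisation 1. The other measured meiosis genes, IME1, IME2 and NDT80, read -0.19, -0.03 and -0.06 there. In that hybridisation the values of all these a cell and meiosis genes came from the high power scan alone. Of the 10 genes, 6 were highest in hybridisation 1, namely UBI4, UBC1, UBC7, UBC13, CDC34 and RAD6, against 33.9% of all genes. What part these differences between hybridisations had in their values was not tested. The features also differed by digits 2 and 3 of their ID. Across the 24 groups of features that share these digits, group medians ran from -0.60 to 0.32 in hybridisation 1, from -0.51 to 0.42 in hybridisation 2 and from -0.28 to 0.31 in hybridisation 3. What these digits stand for is not given in the sources used here. Values after centring each group on its median are given beside part of the results, and results without one may also have moved.

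Of the 10 genes, UBC5 and UBC13 rose, while 8 did not pass and 0 fell, by limma's moderated test with Benjamini-Hochberg adjustment over 5349 genes at a threshold of 0.05. Over all tested genes 21.0% passed, 9.14% higher and 11.9% lower, so the share of 2 in 10 that passed was close to that of all genes. Besides UBC5 and UBC13, CDC34 had an unadjusted limma p under 0.05, at 0.0145. How many of all genes had such a p was not counted, so no excess can be read from it. The mean log2 ratio lay above 0 for 9 genes and below 0 for 1, UBC6. Over all tested genes 48.2% had a mean above 0. The 3 hybridisations shared a sign in 7 genes (58.8% of all genes), and 6 of these lay above 0 in each (27.5% of all genes). Of the 8 genes with a value in all 6 scans, UBC5, UBC13 and CDC34 lay above 0 in every scan, as did 23.4% of all genes with 6 values. The median of the 10 means was 0.46, with a range of -0.17 to 1.2, against a median of -0.02 over all genes. Both calls ended without hybridisation 3 (limma adjusted p = 0.0965 for UBC5 and 0.126 for UBC13), where limma called 1 gene of 5349.

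**Figure D1:**
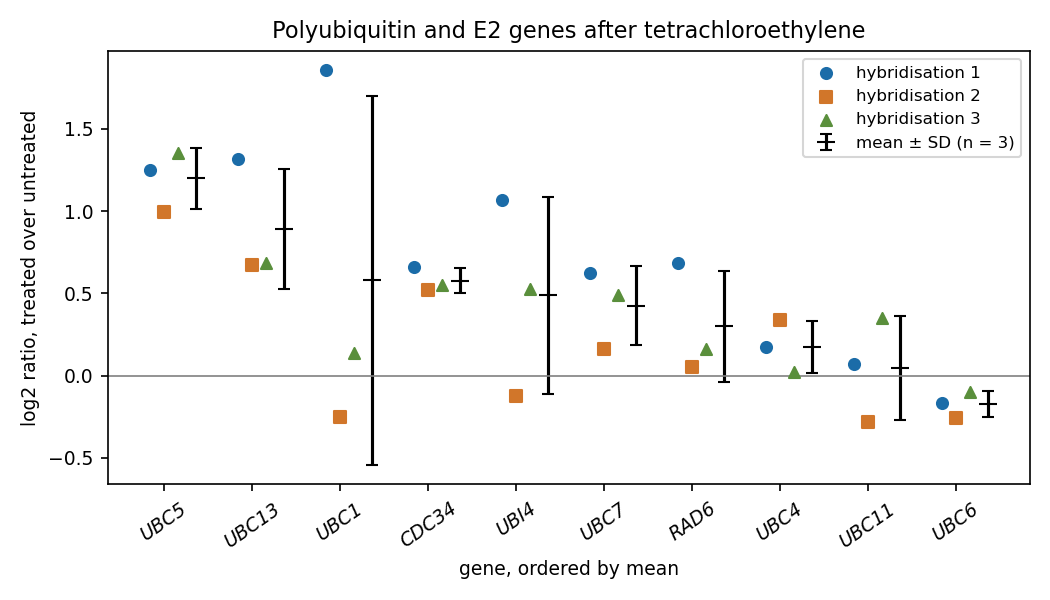
Log2 ratio of exposed over unexposed cells (y axis) for UBI4 and 9 E2 genes (x axis, ordered by mean), with 1 point for each hybridisation and a bar for the mean ± SD (n = 3). UBC5 lies between 0.99 and 1.36 in all 3 hybridisations, while UBC1 and UBI4 are high in hybridisation 1 and below 0 in hybridisation 2.

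UBI4, the polyubiquitin gene (YLL039C), had log2 ratios of 1.07, -0.13 and 0.52 in hybridisations 1, 2 and 3. It was thus 2.10-fold higher in 1 culture and close to its starting level in another. The mean was 0.49 ± 0.60 (SD, n = 3), or 1.40-fold with a 95% confidence interval of 0.92 to 2.14, and it did not pass (limma adjusted p = 0.207). The spread over hybridisations was greater than for 83.9% of genes. Both scans gave the same picture where both were read, with 0.99 and 1.15 in hybridisation 1 and -0.18 and -0.07 in hybridisation 2, and in hybridisation 3 the low power scan alone held a value. Over 3 scans above 0 and 2 below, no direction could be called for this gene at n = 3.

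Ubiquitin is also made from fusion genes that join 1 ubiquitin unit to a ribosomal protein. Since all of these carry the ubiquitin coding sequence, a cDNA array may read them partly in common with UBI4. RPL40B had log2 ratios of -0.14, -0.88 and -0.52, with a mean of -0.51 ± 0.37 (n = 3, adjusted p = 0.123 by limma). RPS31 had 0.34, 0.18 and -0.50, a mean of 0.01 ± 0.45. Centring of ID groups put the means of RPL40B and RPS31 at -0.73 and -0.32. RPL40A was not analysed here. In each hybridisation the ratio of UBI4 lay above that of RPL40B, and neither gene passed the threshold. Against RPS31, UBI4 was higher in hybridisations 1 and 3 and lower in hybridisation 2 (-0.13 against 0.18). RPS31 had a value in the low power scan alone in every hybridisation, and RPL40B did in hybridisation 2. UBA1, which codes for the ubiquitin-activating enzyme, had 0.10, -0.08 and 0.12, a mean of 0.05 ± 0.11 (n = 3). Its 95% confidence interval was -0.38 to 0.47, and its mean was -0.08 after centring of ID groups.

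UBC4 and UBC5 are paralogues that code for closely similar E2 enzymes with overlapping work in the breakdown of short-lived and abnormal proteins. UBC5 (YDR059C) had log2 ratios of 1.25, 0.99 and 1.36, all close to a doubling or more. Its mean was 1.2 ± 0.19 (SD, n = 3), or 2.30-fold with a 95% confidence interval of 1.69 to 3.11 (limma adjusted p = 0.0114). It lay above 92.4%, 94.2% and 96.7% of genes in hybridisations 1, 2 and 3, and above 0 in all 6 scans. Under 13 other settings its limma adjusted p ran from 4.49e-09, without hybridisation 1, to 0.0965, without hybridisation 3. The call was kept in 12 of them. Without hybridisation 1, 43.8% of all genes passed. As deposited, the mean of UBC5 was the 193rd highest of 5349 genes. It was the only one of the 10 genes with a mean of at least 2-fold, which 5.68% of all genes reached. After centring of ID groups UBC5 was at 1.87-fold and UBC1 alone reached 2-fold, at 2.01-fold. UBC4 (YBR082C) had log2 ratios of 0.17, 0.34 and 0.02. Its mean was 0.18 ± 0.16 (n = 3), or 1.13-fold with a 95% confidence interval of 0.84 to 1.53 (limma adjusted p = 0.510).

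The paralogues were compared within each array. UBC5 exceeded UBC4 by 1.07, 0.66 and 1.34 on the log2 scale in hybridisations 1, 2 and 3, a mean difference of 1.02 ± 0.34 (SD, n = 3), or 2.03-fold. UBC5 was the higher gene in 3 of 3 hybridisations and in 6 of 6 scans. An exact two-sided sign-flip permutation test gave p = 0.25, the smallest that 3 hybridisations allow. In a limma fit on the difference of every gene from UBC4, adjusted over 5348 genes, UBC5 passed with adjusted p = 0.0124 and a 95% confidence interval of the difference of 0.50 to 1.55. In that fit 24.2% of genes passed, and all its differences share the values of UBC4.

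The size of the difference varied with the scan. In hybridisation 1 it was 0.90 at high and 1.24 at low power, and in hybridisation 3 it was 1.13 and 1.55. In hybridisation 2 it was 1.26 at high power and 0.06 at low power. There UBC4 read -0.03 at high and 0.71 at low power, a gap of 0.74, the widest between the scans of any of the 10 genes, while UBC5 read 1.23 and 0.77. The low power scan of hybridisation 2 alone thus held the paralogues at about the same ratio. Without it the mean difference was 1.22 ± 0.14 (n = 3), and with low power scans alone it was 0.95 ± 0.79, with adjusted p = 0.121 in the limma fit.

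**Figure D2:**
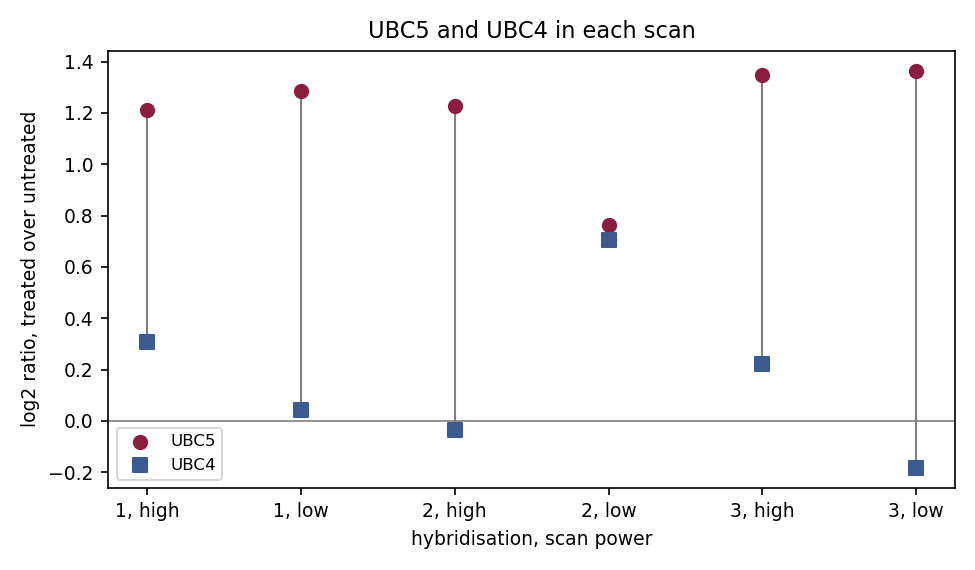
Log2 ratio of exposed over unexposed cells (y axis) for UBC5 (circles) and UBC4 (squares) in each of the 6 scans (x axis), joined by a line within a scan. UBC5 lies above UBC4 in all 6 scans, by 0.06 in the low power scan of hybridisation 2 and by 0.90 to 1.55 in the others.

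The features of the paralogues also lay in ID groups with different medians. The group of UBC5 had medians of 0.32, 0.35 and 0.21 in hybridisations 1, 2 and 3, and that of UBC4 had -0.42, -0.38 and -0.11. The groups themselves thus differed by 0.74, 0.74 and 0.33 in the direction of the paralogues' difference. After centring of ID groups, an alternative added after seeing the data, UBC5 had a mean of 0.91 ± 0.26 (n = 3) and still passed (limma adjusted p = 0.0272), and UBC4 had 0.50 ± 0.30 (limma adjusted p = 0.124). The difference became 0.41 ± 0.54, with UBC5 higher in 2 of 3 hybridisations, and no longer passed the limma fit on differences (adjusted p = 0.325, 95% confidence interval -0.22 to 1.04). Under 11 settings of that fit the adjusted p ran from 0.000395 to 0.325, and 8 passed. Among those that passed, median centring and a minimum of 2 hybridisations could not change a fit on within-array differences. Both returned the main result (limma adjusted p = 0.0124) and add nothing to it. That UBC5 was above its level before exposure therefore held under centring, while its excess over UBC4 did not, and whether the ID groups stand for position on the slide or for the choice of genes in them was not tested. Cross-hybridisation between these paralogues was not tested either, since probe sequences were not used here.

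**Figure D3:**
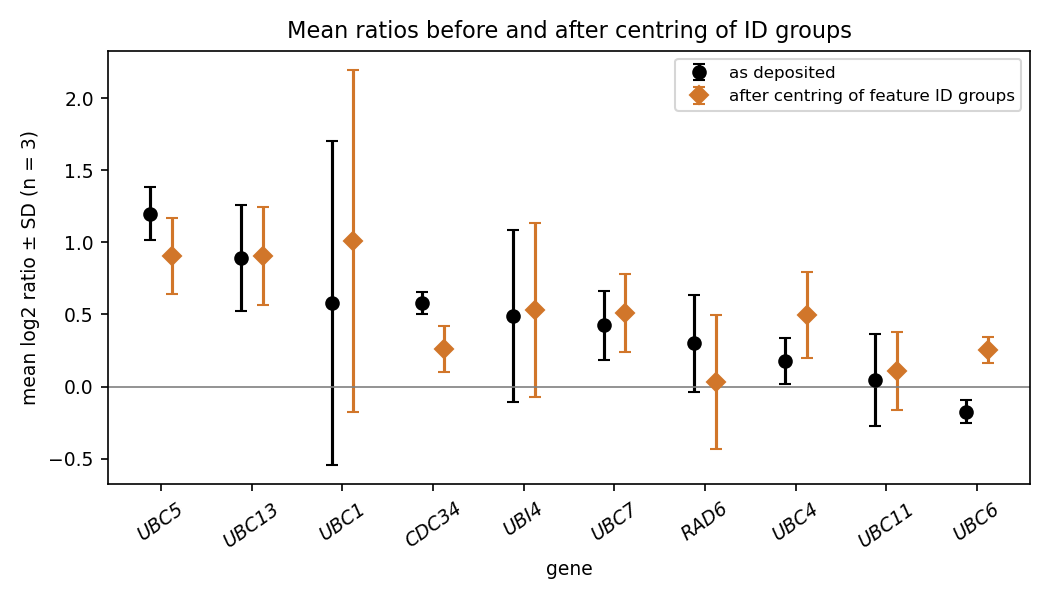
Mean log2 ratio ± SD over 3 hybridisations (y axis) for the 10 genes (x axis), as deposited (circles) and after centring of ID groups (diamonds). UBC5 moves from 1.2 to 0.91 and UBC4 from 0.18 to 0.50, while UBC13 stays at 0.89 and 0.90.

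UBC1 codes for another E2 that overlaps in function with UBC4 and UBC5. UBC1 (YDR177W) had log2 ratios of 1.86, -0.25 and 0.14. The first of these is 3.62-fold and the highest single value among the 10 genes, and the other 2 lie on either side of 0. Its mean of 0.58 ± 1.12 (SD, n = 3) did not pass (limma adjusted p = 0.316), and its spread was greater than that of 98.0% of genes. Without hybridisation 1 the mean was -0.06, and after centring of ID groups it was 1.01 ± 1.18 (n = 3). In hybridisation 1 it read 1.80 at high and 1.91 at low power, so the high value was found at both laser powers.

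UBC6 and UBC7 act at the endoplasmic reticulum, where misfolded proteins are marked for the proteasome. UBC6 (YER100W), which codes for an E2 anchored in that membrane, had log2 ratios of -0.16, -0.26 and -0.10. It was the only gene of the 10 below 0 in all 3 hybridisations and in all 6 scans, with a small spread, but the mean of -0.17 ± 0.08 (SD, n = 3) did not pass (limma adjusted p = 0.502). Its ID group had medians of -0.56, -0.51 and -0.28, and after centring the mean turned to 0.25 ± 0.09. UBC7 (YMR022W) had 0.62, 0.16 and 0.49, all above 0, with a mean of 0.43 ± 0.24 (n = 3) and a limma adjusted p of 0.150. With high power scans alone UBC7 passed, at 0.59 (limma adjusted p = 0.0465), and over 13 settings the value ran from 0.0465 to 0.561.

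CUE1, whose protein holds Ubc7 at the membrane, had log2 ratios of -0.65, 0.57 and 0.42, a mean of 0.11 ± 0.67 (n = 3). Its mean turned to -0.18 after centring of ID groups. HRD3, the partner of the ligase HRD1, had 1.69, 0.16 and 0.21, a mean of 0.69 ± 0.87 (n = 3), and did not pass. HRD1, a membrane ligase that works with Ubc7, had 0.46, 1.27 and 0.84, the first from the high power scan alone. All 3 lay above 0, and HRD1 rose by a mean of 0.86 ± 0.40 (SD, n = 3), or 1.81-fold (limma adjusted p = 0.0359), a call that ended after centring of ID groups (0.0796).

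UBC13 forms a pair with the E2 variant MMS2 that builds a chain type used in the tolerance of DNA damage. UBC13 (YDR092W) had log2 ratios of 1.31, 0.68 and 0.69, above 0 in all 6 scans. It rose by a mean of 0.89 ± 0.37 (SD, n = 3), or 1.86-fold with a 95% confidence interval of 1.31 to 2.62 (limma adjusted p = 0.0294). The call ended with a minimum fold of 1.2 (limma adjusted p = 0.0783), but centring of ID groups left it in place with a mean of 0.90 (0.0317). Over 13 settings its limma adjusted p ran from 0.00103, without hybridisation 1, to 0.126, without hybridisation 3, and 11 kept the call. The scans of UBC13 differed by 0.19, 0.05 and 0.03 in hybridisations 1, 2 and 3.

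Its partner MMS2 had log2 ratios of 1.49, 0.93 and 1.27. MMS2 thus lay above UBC13 in each hybridisation, by 0.17, 0.26 and 0.58. It rose by 1.23 ± 0.28 (SD, n = 3), or 2.35-fold (limma adjusted p = 0.0117), and kept its call after centring of ID groups (0.0191). Both partners were therefore higher after exposure, and their difference of 0.34 ± 0.22 had p = 0.25 by the exact two-sided sign-flip test, the smallest it allows. RAD5, a ligase of the same damage tolerance pathway, had -0.004, -0.48 and -1.03, a mean of -0.50 ± 0.51 (n = 3), and did not pass.

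CDC34 codes for the E2 of the SCF ligases, which mark cell cycle regulators. CDC34 (YDR054C) had log2 ratios of 0.66, 0.52 and 0.55, the smallest spread of the 10 genes, and lay above 0 in all 6 scans. Its mean of 0.58 ± 0.08 (SD, n = 3), or 1.49-fold with a 95% confidence interval of 1.11 to 2.00, did not pass (limma adjusted p = 0.0602). Under the other settings its limma adjusted p ran from 0.0121, without hybridisation 1, to 0.324, after centring of ID groups, where its mean was 0.26. CDC4, an SCF subunit that selects targets, fell, with -1.16, -1.01 and -0.53 and a mean of -0.90 ± 0.33 (SD, n = 3), or 1.86-fold lower (limma adjusted p = 0.0266, and 0.0613 after centring of ID groups). The SCF genes CDC53, SKP1, HRT1, GRR1 and MET30 did not pass, with means from -0.41 to 0.26. Centring of ID groups moved these means to a range of -0.09 to 0.39.

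RAD6 codes for an E2 that serves several ligases, in DNA damage tolerance, in the breakdown of proteins by their first residue, and in the marking of histone H2B. RAD6 (YGL058W) had log2 ratios of 0.68, 0.05 and 0.16. The values lay above 0 in all 3 hybridisations but near 0 in 2 of them, with a mean of 0.30 ± 0.34 (SD, n = 3) and a limma adjusted p of 0.320. After centring of ID groups the mean was 0.03 ± 0.47 (n = 3). BRE1, the ligase that works with Rad6 on histone H2B, fell, with -0.63, -0.53 and -0.75 and a mean of -0.64 ± 0.11 (SD, n = 3), or 1.56-fold lower (limma adjusted p = 0.0479, and 0.0614 after centring of ID groups). RAD18 and UBR1, ligases that also use Rad6, were not analysed here.

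UBC11 codes for an E2 that resembles an animal enzyme of mitotic cyclin breakdown. UBC11 (YOR339C) had log2 ratios of 0.07, -0.28 and 0.35. Its mean of 0.05 ± 0.32 (SD, n = 3) was the nearest to 0 of the 10 genes (limma adjusted p = 0.888). In hybridisation 3 it read 0.03 at high and 0.68 at low power, and with high power scans alone its mean was -0.10.

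In the order of their mean ratios the genes ran UBC5, UBC13, UBC1, CDC34, UBI4, UBC7, RAD6, UBC4, UBC11 and UBC6. No 2 neighbours in that order kept their order in all 3 hybridisations, so neighbours did not differ beyond their spread. UBC5 and UBC13 differed by 0.31 ± 0.37, with UBC13 the higher in hybridisation 1. UBC5 lay above 7 of the 9 other genes in all 3 hybridisations, the exceptions being UBC13 and UBC1. After centring of ID groups UBC5 lay above 5 of the 9 in all 3, with UBI4 and UBC4 as further exceptions, and UBC1 had the highest mean, at 1.01 against 0.91 for UBC5. By hybridisation, 9, 6 and 9 of the 10 genes lay above 0, with medians of 0.67, 0.11 and 0.42, against medians over all genes of -0.08, -0.02 and -0.01. Hybridisation 1 held the highest value of 6 of the 10 genes, against 33.9% of all genes.

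The other genes of the ubiquitin pathway were counted over 50 listed genes, of which 44 were measured and 6 were not analysed here. In this set 5 genes rose and 2 fell, 37 did not pass, and the 15.9% that passed lay below the 21.0% of all genes. The median of the 44 means was 0.04, with a range from -0.90 to 1.497. Without hybridisation 1, 11 rose and 7 fell, or 40.9% against 43.8% of all genes. Without hybridisation 2, 2 rose and 0 fell by limma, or 4.55% against 14.3% of all genes. Without hybridisation 3, 0 rose and 0 fell by limma, where 0.0187% of all genes passed. Among 5 E2 genes and E2 variants outside the 10, UBC8 and MMS2 rose and 3 did not pass. The share called was 40% in this short list, against 21.0% of all genes. UBC8 serves the breakdown of gluconeogenic enzymes, and had log2 ratios of 1.57, 1.22 and 1.70 and a limma adjusted p of 0.00897. The 3 that did not pass were UBC9, UBC12 and PEX4. UBC9, the E2 for SUMO, was at -0.38 ± 0.33 (n = 3). UBC12, the E2 for the ubiquitin-like protein Rub1, was at 0.05 ± 0.33, and the peroxisomal E2 PEX4 at -0.18 ± 0.33. Their means after centring of ID groups were -0.57, -0.13 and 0.14.

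Of 18 measured ligases and partners, HRD1 and HUL5 rose, CDC4 and BRE1 fell and 14 did not pass, a share of 22.2% called against 21.0% of all genes. HUL5, a ligase that extends chains at the proteasome, had log2 ratios of 0.37, 0.90 and 0.83, a mean of 0.70 ± 0.28 (SD, n = 3, limma adjusted p = 0.0481), and lost its call after centring of ID groups (0.0841). Of 18 deubiquitinating enzymes, which remove ubiquitin, UBP11 rose, 0 fell and 17 did not pass, a share of 5.56% called against the same 21.0%. UBP11 had 0.32, 1.00 and 1.09, a mean of 0.80 ± 0.42 (SD, n = 3, limma adjusted p = 0.0442), and kept its call after centring of ID groups (0.0403). UBP6, which acts on the proteasome, had 0.65, 0.66 and 0.54, a mean of 0.61 ± 0.07 (n = 3). It lay just outside the threshold as deposited (limma adjusted p = 0.0511), and further out after centring of ID groups, at 0.28 (0.275). UBP6 was chosen for mention after its values were seen. All 7 calls among these pathway genes ended without hybridisation 3, where their limma adjusted p ran from 0.0787 for UBC8 to 0.256 for BRE1. Over all settings tried, that one included, UBC8 and MMS2 kept their calls in 12 of 13, HUL5, CDC4 and UBP11 in 9 of 13 each, BRE1 in 7 of 13 and HRD1 in 7 of 11.

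**Figure D4:**
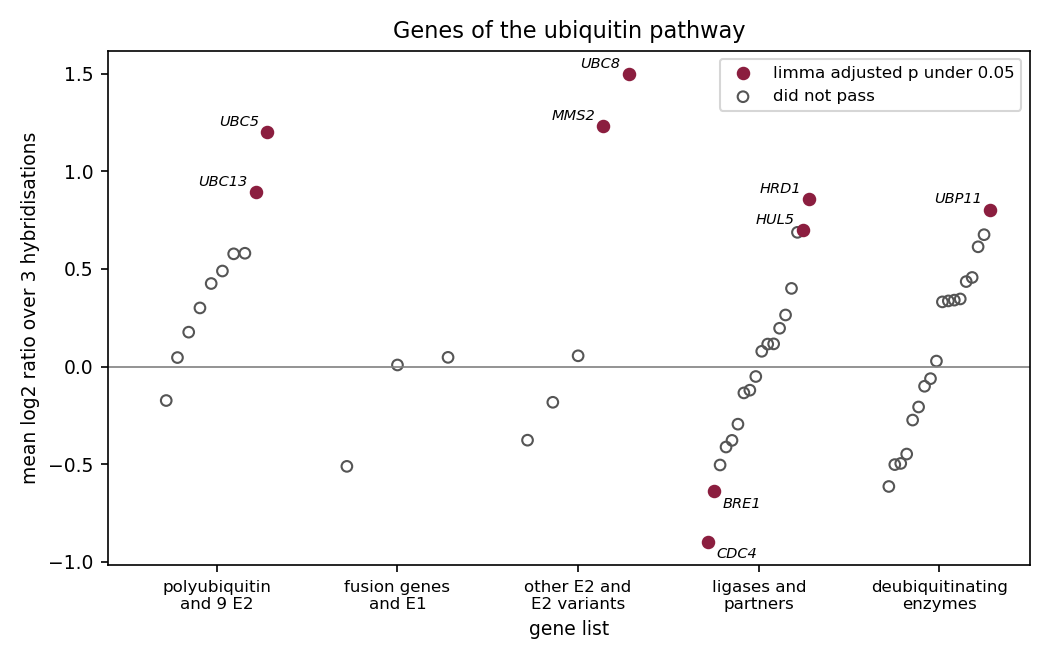
Mean log2 ratio over 3 hybridisations (y axis) for UBI4 and the 9 E2 genes and for 4 lists of other ubiquitin pathway genes (x axis), with filled points for genes past a limma adjusted p of 0.05 and open points for the others. Named filled points are UBC5 and UBC13 among the 10 genes, UBC8 and MMS2 among other E2 genes, HRD1, HUL5, CDC4 and BRE1 among ligases, and UBP11 among deubiquitinating enzymes.

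Over the 3 hybridisation ratios, the genes nearest to UBC5 by Euclidean distance among 5339 others were SPO73 (distance 0.07), SPS22 (0.18) and the glycolytic gene TDH3 (0.20). Those nearest to UBI4 were GEX2 (0.08), the proteasome assembly factor UMP1 (0.20) and MOG1 (0.22). A likeness over 3 arrays says only that the ratios lay close together.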

How the data were processed

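Per the labels, polyA RNA of 3 independent cultures was measured on 2-colour arrays, each scanned at 2 laser powers. The deposited values were read as log2 ratios. The authors normalised them by LOWESS from spots flagged 0, per the labels. The log base and direction are not stated. As a log10 ratio, the highest value, 7.74, would be beyond what a usual scanner records. The sources used here do not give the scanner, the spot software or the background correction. Intensities were not used, so dim spots were not filtered, and the number of arrays limits the precision.

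Of 6912 features, 5513 had 1 gene name in the platform annotation and 1399 had none. A gene table of assembly R64 matched 5508 of them, and 5 kept their older name. Scans were averaged, then features of a gene. A single scan was used where the other had no value, as for UBI4 and UBC11. A value in all 3 hybridisations was required, which 5349 of 5365 genes had. Means were tested against 0, two-sided, with limma 3.58.1 in R 4.3.3 (lmFit, eBayes), with Benjamini-Hochberg adjustment over all tested genes. Confidence intervals are limma's. The procedure was run on simulated data with independent normal noise for each gene. These held no differences between hybridisations or ID groups, so they were no check on either.

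The 10 genes, the pathway lists and the tests were chosen with earlier results of these data known. Genes named were the 10, pathway genes past the threshold, RPL40A, RPL40B, RPS31, UBA1, UBC8, CUE1, RAD18 and MMS2, and the 3 genes nearest to UBC5 and to UBI4. RAD5, HRD3, SPO11, IME1, IME2, NDT80, MFA1, MFA2, STE2, STE3, MF(ALPHA)2, UBC9, UBC12, PEX4, UBR1, UBP6 and the SCF genes were added after their values were seen. Alternatives covered scans, centring, scaling, a minimum fold, missing values and leaving out each hybridisation. Centring of ID groups was chosen after seeing the data.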

Additional observations from a re-analysis of the deposited data

How the results depend on the processing

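Each value is already a ratio of exposed over unexposed cells within an array, and the samples form a single group. No further pairing of samples was therefore possible. Leaving out each hybridisation in turn gave 0 to 3 of the 10 genes higher and 0 lower by limma, 0 to 11 pathway genes higher and 0 to 7 lower, and a UBC5 minus UBC4 difference of 0.87 to 1.21. Over all genes the share called ran from 0.0187% without hybridisation 3 to 43.8% without hybridisation 1. A minimum fold of 1.2 left 1 of the 10 genes higher (UBC5), 2 pathway genes higher and 0 lower by limma. In that setting 9.61% of all genes passed. The low power scan alone gave 3 pathway genes higher among 32 measured, where 24% of all genes passed in either direction. Lower pathway genes numbered 4 with hybridisation as a random block and 1 after median centring. Of all genes, 32.5% and 21% passed in either direction in these settings. After centring of ID groups, 3 pathway genes were higher and 0 lower by limma, where 16.1% of all genes passed. UBC5 minus UBC4 was then 0.41. Its values under the remaining alternatives ran from 0.95 to 1.22. Among the 10 genes, the sign of the mean turned for UBC6 after centring of ID groups (0.25) and for UBC11 with high power scans only (-0.10). With 1 hybridisation left out, the mean ran from -0.057 (without hybridisation 1) to 0.996 for UBC1 and from -0.11 (without hybridisation 3) to 0.21 for UBC11. Causes were not tested. Each fit without 1 hybridisation left limma the same 1 residual degree of freedom, whichever hybridisation was left out. Limma adds prior degrees of freedom that it estimates from all genes in each fit, and these were not compared. UBC5 passed in 12 of 13 alternatives and UBC13 in 11 of 13.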
